A study of Homo sapiens with 12 samples.

Results

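A set of 9 genes was followed here, the angiopoietin ligands ANGPT1 and ANGPT2, the Tie receptors TEK and TIE1, and the endothelial markers PECAM1, ESAM, EMCN, ENG and VWF. They were taken by symbol, using the brightest probeset of a symbol on average, and 8 of the 9 were measured among 14884 gene symbols on the arrays. TEK, which encodes the Tie2 receptor, had no symbol in the annotation used and was not analysed here. The question was whether invading lung cancer cells at the front of a chain carried endothelial transcripts other than those of the VEGF receptors.

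The cells were H1299, an established human non-small cell lung cancer line, stably carrying the photoconvertible fluorophore Dendra2 and grown as spheroids that invaded Matrigel. The 4 groups were leader cells (the first cell of an invading chain), follower cells (the cells trailing it), invasive photoconverted cells and invasive non-photoconverted cells, and the last pair served as the control for photoconversion itself. Each group had 3 arrays, and each array was made from a well with a small pool of sorted cells whose RNA was amplified before hybridisation. All groups carried Dendra2 and came from the same tumour line. Neither the labels nor the methods say that the wells came from separate cultures, so the p-values below measure only the spread between these samples.

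In vessels, the angiopoietins are secreted by perivascular and endothelial cells and bind the receptor tyrosine kinase Tie2. ANGPT1 activates Tie2 and keeps vessels quiescent, whereas ANGPT2 is a context-dependent agonist or antagonist that is stored in Weibel-Palade bodies of endothelial cells and released on stimulation. TIE1 is an orphan relative of Tie2 that forms complexes with it and modulates its signalling. PECAM1 and ESAM are immunoglobulin-family adhesion proteins of endothelial cell junctions, EMCN (endomucin) is a sialomucin of the endothelial surface, ENG (endoglin) is a co-receptor for ligands of the TGF-β and BMP family, and VWF is the haemostatic glycoprotein that fills Weibel-Palade bodies.

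Many endothelial genes are controlled by ETS transcription factors, which bind around the core GGAA (TTCC on the other strand). RefSeq promoter sequences on GRCh38.p14 were matched by symbol for 3 of the 8 measured genes, and the 250 bases before the start of each gene are shown with every GGAA or TTCC in capitals, so that the receptor TIE1 and the markers ENG and EMCN can be compared. The windows lie at chr1:43300732-43300981 on the plus strand for TIE1, chr9:127854659-127854908 on the minus strand for ENG and chr4:100518023-100518272 on the minus strand for EMCN.
TIE1: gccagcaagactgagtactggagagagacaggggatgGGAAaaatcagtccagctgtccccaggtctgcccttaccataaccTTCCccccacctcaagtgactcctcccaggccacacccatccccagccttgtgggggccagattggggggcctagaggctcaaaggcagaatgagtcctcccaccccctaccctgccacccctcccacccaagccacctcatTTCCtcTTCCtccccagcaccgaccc
ENG: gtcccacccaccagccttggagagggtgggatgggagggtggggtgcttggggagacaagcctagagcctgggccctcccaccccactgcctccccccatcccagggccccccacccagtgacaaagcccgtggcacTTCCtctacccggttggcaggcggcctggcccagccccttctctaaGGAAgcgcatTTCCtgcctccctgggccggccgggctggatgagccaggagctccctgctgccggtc
EMCN: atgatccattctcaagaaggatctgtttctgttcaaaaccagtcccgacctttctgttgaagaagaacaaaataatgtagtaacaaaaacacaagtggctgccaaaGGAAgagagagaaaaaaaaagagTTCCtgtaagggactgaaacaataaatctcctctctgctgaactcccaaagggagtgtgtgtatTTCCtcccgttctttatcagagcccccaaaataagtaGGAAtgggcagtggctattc
The TIE1 and EMCN windows each held 4 matches and the ENG window 3. Such a short word is common. Of 27305 genes with a promoter in the same set, 92.8% had at least 1 match in the same window and the median was 3, while 34.5% had at least 4 and 55.3% had at least 3. The matches are letters in a window, not measured binding sites.

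All 8 measured genes gave dim signals. Signals were deposited as log2 values, and the 96 values of the 8 genes on the 12 arrays lay between 2.02 and 3.67. Over all 14884 genes, the quartiles of the mean log2 signal were 2.64 and 3.22 with a median of 2.89, and 0.665% of genes had a mean above 6. No gene of the group did. The means over the 12 arrays ran from 2.60 for ENG, at the 21.4th percentile of all genes, to 3.18 for PECAM1, at the 72.2nd percentile. Probes differ in brightness, so a percentile shows how dim a signal was and gives no order of transcript amounts between genes. Among 8 measured epithelial and lung tumour cell markers, VIM and KRT18 had the highest readings. VIM, the intermediate filament of mesenchymal cells, had a mean of 6.03, and KRT18, a keratin of simple epithelia, had a mean of 3.86. KRT8, the partner keratin of KRT18, read 3.20, and the other 5 read between 2.33 for the epithelial adhesion molecule EPCAM and 3.06 for the surfactant gene SFTPC, with the lung lineage factor NKX2-1 at 2.56. Of the other marker sets, PF4, a platelet gene, had the highest mean among 3 blood cell genes at 3.82. The 4 measured mural and fibroblast genes had means of 2.26 (DCN) to 2.96 (CSPG4), and the lymphatic markers PROX1, LYVE1 and PDPN had 2.32 to 2.79. The part of RNA from other cells in the values below was not tested. Whether signals as dim as those of the 8 genes stood above the background of the arrays was not tested. The small differences given below may therefore lie within background. A lower signal from fewer expressing cells in a well and one from less RNA per cell cannot be told apart.

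**Figure D1:**
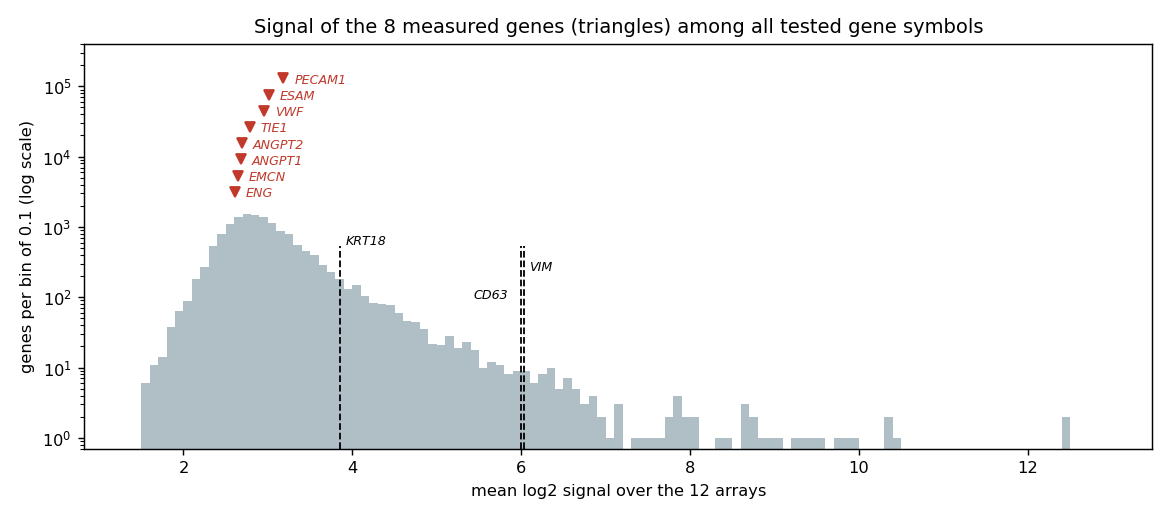
Histogram of the mean log2 signal over the 12 arrays for 14884 gene symbols (x axis, bins of 0.1; y axis, genes per bin on a log scale), with the 8 measured genes as triangles whose height has no meaning and VIM, KRT18 and CD63 as dashed lines. The 8 genes sit between 2.60 and 3.18, inside the bulk of all genes and below VIM at 6.03.

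On the 12 arrays, the PECAM1 probeset had exactly the same values as 8 other probesets, and it correlated above 0.99 with 1088 others, of which 24 represent other gene symbols. Its values and those of GABPB1-IT1, a non-coding RNA gene, differed by at most 0.00047 on any array. PECAM1 also varied less than nearly all genes, with an SD of 0.045 over the 12 arrays against a median SD of 0.32 over all genes. The other 7 measured genes had no identical probeset and none above 0.99. Across the table, 13.6% of the probesets with signal had an identical partner, and so did 5.37% of the tested genes. These genes included the lymphatic marker LYVE1 and ADGRF5, which is in the list of other endothelial markers below. The PECAM1 value is thus shared with probesets of other genes, and the main counts are given below with and without it.

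**Figure D2:**
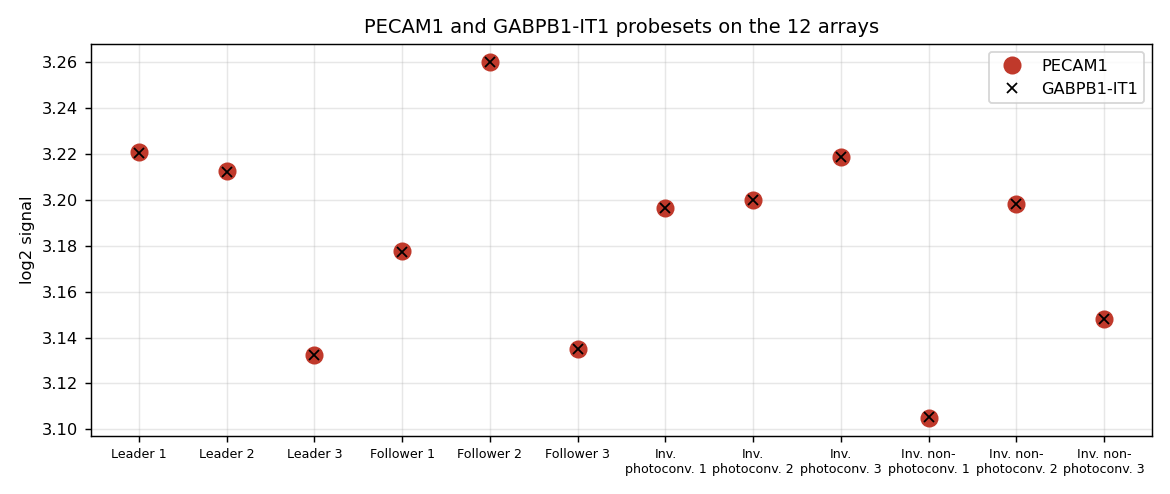
Log2 signal (y axis) of the PECAM1 probeset (circles) and the GABPB1-IT1 probeset (crosses) on each of the 12 arrays (x axis). Each cross lies on its circle, with gaps of at most 0.00047, while the values span only 3.10 to 3.26.

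ANGPT2 had the largest difference between leader and follower cells among the 8 genes. The log2 signal was 2.67, 2.96 and 3.01 on the 3 leader arrays, against 2.38, 2.57 and 2.62 on the 3 follower arrays. No follower array reached the lowest leader array, and the nearest arrays were 0.052 apart. The means were 2.88 ± 0.18 in leader cells and 2.52 ± 0.12 in follower cells (SD, n = 3 each), a difference of 0.35 (standard error 0.17, 95% interval -0.01 to 0.72), or 1.28-fold. The unadjusted p was 0.0541 and the adjusted p 0.9997 (limma, Benjamini-Hochberg over all genes), so the difference did not pass. The invasive photoconverted arrays read 2.60, 2.87 and 2.58, against 2.70, 2.61 and 2.72 on the invasive non-photoconverted arrays. These values overlapped, with a difference of 0.01 (95% interval -0.36 to 0.37). The control pair fell between leader and follower cells in its means, at 2.68 on both sides.

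ANGPT1, the Tie2 agonist, read 2.68, 3.06 and 2.75 on the leader arrays, against 2.58, 2.45 and 2.59 on the follower arrays. Again no follower array reached the lowest leader array, with a gap of 0.090. The means were 2.83 ± 0.20 in leader cells and 2.54 ± 0.077 in follower cells (SD, n = 3 each). The difference was 0.29 (standard error 0.27, 95% interval -0.30 to 0.88, limma unadjusted p = 0.300, adjusted p = 0.9997). Without leader replicate 2, the highest of the leader arrays, it was 0.18. The controls were far more spread, with 3.25, 2.69 and 2.43 on the photoconverted arrays, against 2.94, 2.76 and 2.02 on the non-photoconverted arrays. Photoconverted replicate 1 alone was above every leader array and non-photoconverted replicate 3 was below every follower array, so the control arrays covered the whole range of leader and follower cells.

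TIE1, the measured Tie receptor, had values of 3.06, 2.69 and 2.82 on the leader arrays, against 2.77, 2.45 and 2.67 on the follower arrays. The groups overlapped. The difference was 0.22 (standard error 0.18, limma unadjusted p = 0.252, adjusted p = 0.9997), and it was 0.12 when leader replicate 1 was left out and 0.13 when follower replicate 2 was. Photoconverted arrays read 2.69, 3.21 and 2.86, against 2.75, 2.68 and 2.77 on the non-photoconverted arrays. The highest TIE1 signal of all 12 arrays was thus on a control array, invasive photoconverted replicate 2.

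EMCN, the endothelial sialomucin, had the widest gap of the 3 genes without overlap between leader and follower arrays. Its log2 signal was 2.89, 2.80 and 2.75 on the leader arrays, against 2.43, 2.59 and 2.61 on the follower arrays, and the nearest arrays of the groups were 0.147 apart. The means were 2.82 ± 0.072 in leader cells and 2.54 ± 0.095 in follower cells (SD, n = 3 each). The difference of 0.27 (standard error 0.17, 95% interval -0.11 to 0.65) corresponds to 1.21-fold and did not pass (limma unadjusted p = 0.142, adjusted p = 0.9997). Photoconverted arrays had 2.86, 2.43 and 2.67, against 2.65, 2.34 and 2.71 on non-photoconverted arrays. Those controls reached from below the lowest follower array to just under the highest leader array.

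VWF had nearly the same mean in leader cells (3.11 ± 0.34) and in invasive photoconverted cells (3.12 ± 0.15; SD, n = 3 each). It read 2.80, 3.47 and 3.05 on the leader arrays, against 2.65, 2.77 and 2.97 on the follower arrays. The difference was 0.31 (standard error 0.20, 95% interval -0.12 to 0.74, limma unadjusted p = 0.141, adjusted p = 0.9997), and it was 0.13 without leader replicate 2, the brightest VWF array of the study. In the controls, VWF was 3.06, 3.003 and 3.29 on photoconverted arrays, against 2.69, 2.80 and 2.95 on non-photoconverted arrays. Here the groups did not overlap, with a gap of 0.057, and the difference of 0.31 (standard error 0.20, limma unadjusted p = 0.147, adjusted p = 0.998) was of the same size as that between leader and follower cells. The 3 follower arrays also lay below the 3 photoconverted arrays, by a mean of -0.32 (standard error 0.20, limma unadjusted p = 0.130).

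ENG, ESAM and PECAM1 had differences near 0 between leader and follower cells. ENG read 2.80, 2.51 and 2.74 on the leader arrays, against 2.54, 2.48 and 3.06 on the follower arrays, and follower replicate 3 was the brightest ENG array of all 12. The difference was -0.01 (standard error 0.22, 95% interval -0.49 to 0.46), and it was 0.17 without that array. ESAM read 3.19, 2.71 and 3.24 on the leader arrays, against 2.98, 3.05 and 2.92 on the follower arrays, a difference of 0.06 (standard error 0.25, 95% interval -0.49 to 0.61). PECAM1 read 3.22, 3.21 and 3.13 on the leader arrays, against 3.18, 3.26 and 3.13 on the follower arrays, a difference of -0.002 (95% interval -0.30 to 0.30). The intervals of ENG and ESAM leave room for differences of over 0.4 in either direction, so these genes were not shown to be equal in leader and follower cells. In the controls, ENG read 2.61, 2.51 and 2.46 on photoconverted arrays, against 2.61, 2.15 and 2.79 on non-photoconverted arrays. ESAM read 2.52, 2.80 and 3.17 on photoconverted arrays, against 3.67, 2.84 and 3.003 on non-photoconverted arrays. Its control difference of -0.34 (standard error 0.25, limma unadjusted p = 0.199) was the one of the 8 that ran below 0. Without non-photoconverted replicate 1, the brightest value of any of the 8 genes, that difference was -0.09. PECAM1 stayed between 3.10 and 3.22 on all 6 control arrays.

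**Figure D3:**
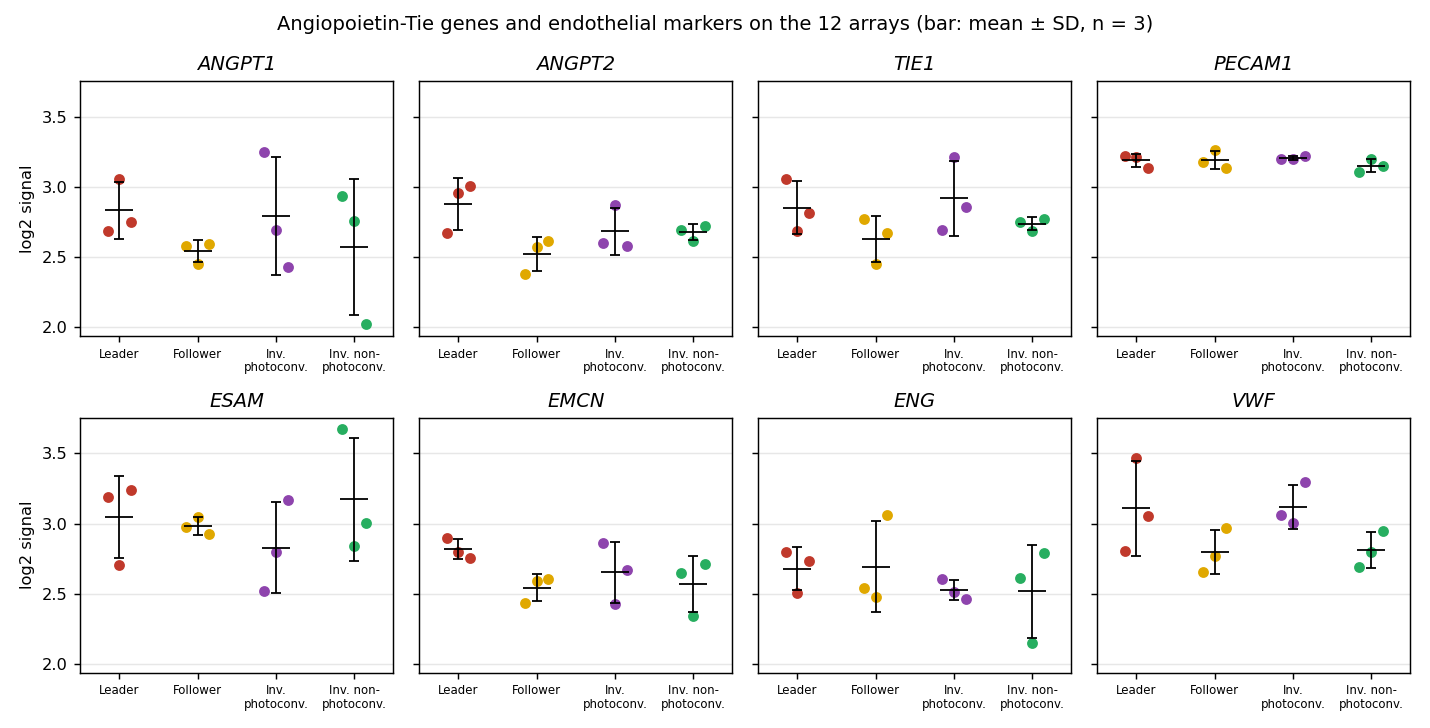
Log2 signal (y axis, shared by all panels) of the 8 measured genes on every array (points), by group (x axis), with the group mean and SD as bars (n = 3). Leader points lie above all follower points for ANGPT1, ANGPT2 and EMCN, and the control groups overlap leader or follower points for each gene.

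In limma's test with adjustment over all genes, 0 of the 8 genes passed between leader and follower cells, and 0 of 14884 genes passed (0.0%). At an unadjusted p under 0.05, 0 of the 8 genes were higher in leader cells, against 318 of all genes (2.14%), and a further 295 genes were lower in leader cells. The exact permutation test on 3 against 3 arrays cannot go below p = 0.1 for any gene, so it cannot reach 0.05 here. In 3 of the 8 genes, all leader arrays lay above all follower arrays (ANGPT1, ANGPT2 and EMCN), which is also 3 of the 7 without PECAM1. This was so in 5.01% of all genes. The opposite, all leader arrays below all follower arrays, held for 0 of the 8 genes and for 3.73% of all genes. Mean differences were above 0 in 6 genes and below 0 in 2, with a median of 0.25 (6, 1 and 0.27 without PECAM1), while over all genes 7508 were above 0 and 7376 below with a median of 0.002. The averaged signal of the 8 genes per array was 2.91 to 2.94 in leader cells and 2.69 to 2.82 in follower cells, against 2.83 to 2.85 in invasive photoconverted cells and 2.67 to 2.89 in invasive non-photoconverted cells. Over the 7 genes without PECAM1 it was 2.87 to 2.91 in leader cells and 2.62 to 2.78 in follower cells, against 2.78 to 2.80 and 2.60 to 2.86 in the photoconverted and non-photoconverted controls. The leader arrays were the highest 3 of the 12 in both versions. This average describes genes that were picked with results of these data known and carries no test. The number of genes with a log2 signal above 6 also varied between arrays, from 94 to 151 in leader cells and 76 to 192 in follower cells, against 103 to 186 in photoconverted and 157 to 332 in non-photoconverted controls. The part of this spread in the results was not tested.

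**Figure D4:**
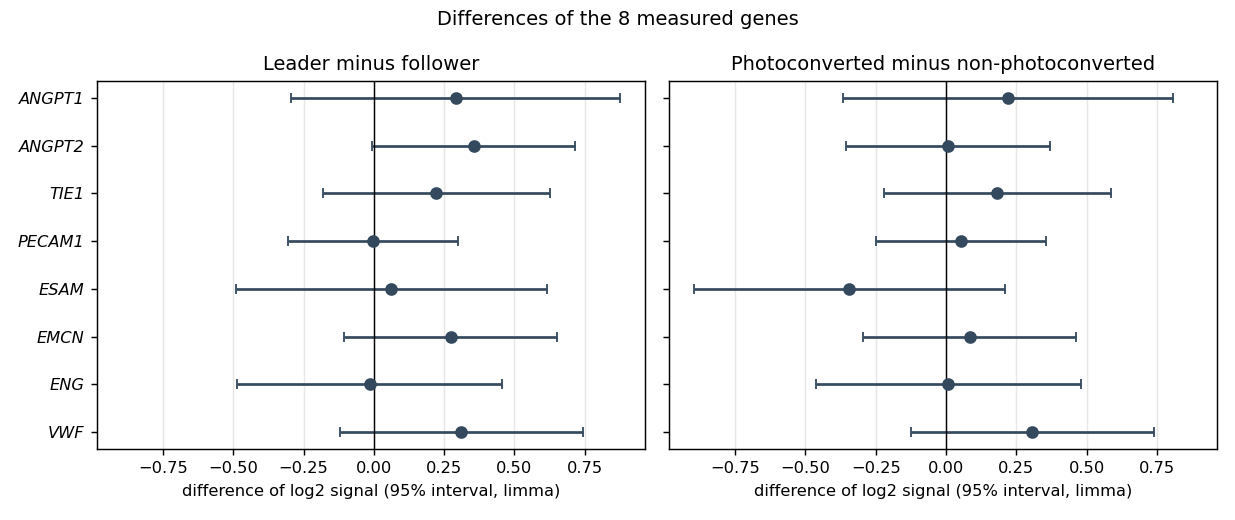
Differences of log2 signal (x axis) with 95% intervals from limma for the 8 measured genes (rows), for leader minus follower cells on the left and invasive photoconverted minus non-photoconverted cells on the right. All 16 intervals include 0, and the interval closest to leaving it is that of ANGPT2 between leader and follower cells, at -0.01 to 0.72.

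The study's methods compared leader and follower cells with a permutation procedure that sets all 9 leader minus follower differences between pairs of arrays against the 9 absolute differences between photoconverted and non-photoconverted arrays. Rewritten from that description, it called 446 of 14884 genes higher in leader cells (3.0%) and 356 lower, without adjustment for the number of genes. Of the 8 genes, 2 were called higher in leader cells, ANGPT2 (0 of 500 permutations reached the observed statistics) and EMCN (permutation p = 0.018). None of the 8 was called lower, against 2.39% of all genes. The pairs of this procedure share arrays, since 9 differences are made from 3 arrays a side. The shuffled differences are therefore not independent, and the permutation p-values can be too small. A call by this procedure is not a test over independent samples. ANGPT1 (permutation p = 0.374), TIE1 (permutation p = 0.376) and VWF (permutation p = 0.51) were not called. Their control differences were 0.22 for ANGPT1, 0.18 for TIE1 and 0.31 for VWF. Single arrays moved the first of these, which was -0.01 without photoconverted replicate 1, -0.05 without non-photoconverted replicate 3 and up to 0.40 without others. TIE1's was 0.04 without photoconverted replicate 2 and 0.30 without photoconverted replicate 1. ANGPT2 was called in all 18 settings run for it, whereas EMCN was not called without leader replicate 1 or without leader replicate 2. The settings include the main run. Taking the mean of probesets or keeping genes that differ between the controls could not change the call of any of the 8 genes. ESAM was called higher in leader cells in 1 of 19 settings, the one without leader replicate 2.

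In one further contrast, the leader minus follower difference was set directly against the photoconverted minus non-photoconverted difference. The excess was 0.35 (standard error 0.23) for ANGPT2, 0.41 (standard error 0.36) for ESAM and 0.19 (standard error 0.24) for EMCN. ESAM reached its value through its negative control difference. For VWF the excess was 0.005 (standard error 0.28), for TIE1 0.04 and for ANGPT1 0.07. None of the 8 passed (limma adjusted p 0.996 to 0.9995), and 0 of 14884 genes did (0.0%), with 544 at an unadjusted p under 0.05.

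Between the control groups, 0 of the 8 genes passed (limma adjusted p 0.998 to 0.9997) and 0 of all genes (0.0%), with 724 genes at an unadjusted p under 0.05. VWF was the 1 gene of the 8 whose photoconverted arrays all lay above the non-photoconverted arrays, as did 5.1% of all genes. The differences were above 0 in 7 of the 8 genes with a median of 0.07 (6 of 7 and 0.08 without PECAM1), against a median of 0.02 over all genes.

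Leader and follower cells were then each compared with the photoconverted controls, which were exposed to the same photoconversion. These comparisons share the 3 photoconverted arrays. Leader minus photoconverted differences were 0.19 for ANGPT2, 0.22 for ESAM, 0.16 for EMCN, 0.15 for ENG, 0.04 for ANGPT1, -0.01 for VWF, -0.02 for PECAM1 and -0.07 for TIE1. The arrays overlapped for all 8 genes. Follower minus photoconverted differences were -0.32 for VWF, -0.29 for TIE1, -0.25 for ANGPT1, -0.16 for ANGPT2, -0.11 for EMCN, -0.01 for PECAM1, 0.16 for ESAM and 0.17 for ENG. VWF was the 1 gene of the 8 whose follower arrays all lay below the photoconverted arrays, as did 4.81% of all genes. For ANGPT1, TIE1 and VWF, then, leader cells had nearly the mean of the photoconverted controls and follower cells had a lower mean. The 95% intervals of these leader minus photoconverted differences were wide, at -0.55 to 0.63, -0.47 to 0.34 and -0.44 to 0.42. The non-photoconverted controls also had lower means than the photoconverted ones, at 2.57, 2.74 and 2.81, against 2.54, 2.63 and 2.80 in follower cells. For ANGPT2 and EMCN, the photoconverted mean lay between those of leader and follower cells. Neither set of differences passed in any of the 8 genes (limma adjusted p 0.9997 for leader cells and 0.998 for follower cells), and 0 of all genes passed in either (0.0% each), with 580 and 627 genes at an unadjusted p under 0.05.

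Ordered by group mean, ANGPT1, ANGPT2 and EMCN ran from leader through photoconverted and non-photoconverted to follower cells. TIE1 and VWF had photoconverted cells on top, followed by leader, non-photoconverted and follower cells. Follower cells had the lowest mean in these 5 genes. ENG had follower cells on top and non-photoconverted cells at the bottom, ESAM had non-photoconverted cells on top and photoconverted cells at the bottom, and PECAM1 had photoconverted cells on top and non-photoconverted cells at the bottom. Neighbours in these orders overlapped in every gene, and a difference among the 4 groups passed in 0 of the 8 genes (limma adjusted p 0.968 to 0.999) and in 0 of all genes (0.0%), with 738 at an unadjusted p under 0.05.

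Correlations among the 8 genes over the 12 arrays ran in both directions. Pairs of other genes were not summarised for comparison, and dim signals can lower a correlation. Of the 28 pairs of the 8 genes, 16 had a correlation above 0 and 12 below, with a median r of 0.06. Without PECAM1, 15 of 21 pairs were above 0, with a median r of 0.10. The highest was between ANGPT2 and VWF (r = 0.54), and the next between ENG and EMCN (r = 0.50). The lowest was between PECAM1 and ENG (r = -0.49), and without PECAM1 between VWF and ESAM (r = -0.40). These correlations are over 12 arrays that include the group differences and share a normalization, and none of them was tested. Among all tested genes, the patterns most like ANGPT2 over the 12 arrays were those of NRP1 (r = 0.91) and RMND5A (r = 0.89), and the most like EMCN were LINC01216 (r = 0.91) and LINC01907 (r = 0.90). VWF was closest to HID1 (r = 0.91) and ZNF835 (r = 0.88), TIE1 to ZNF517 (r = 0.83) and PACSIN3 (r = 0.82), and ANGPT1 to MIR1302-1 (r = 0.87) and NAV2-AS4 (r = 0.84). ENG was closest to MIR582 and FLJ42627 and ESAM to TMEM185B and PNPLA2, each at r = 0.91. No member of the group was among the 2 closest genes of another. The closest genes were picked as the highest r among all tested genes over only 12 arrays. Their r therefore carries no test and does not show that 2 genes are linked.

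Genes that work with these proteins were examined as lists of their pathways, and in none did a gene pass the adjusted test between leader and follower cells. Among 9 of 20 measured partners of Tie signalling, 3 had a mean above follower cells and 6 below, with a median of -0.14. TNIP2, a Tie2-binding inhibitor of NF-κB signalling, read 3.99, 3.71 and 4.54 on the leader arrays, against 3.46, 3.78 and 2.96 on the follower arrays (difference 0.68, limma unadjusted p = 0.0348, adjusted p = 0.9997), and the groups overlapped. It was the 1 gene of the 9 that the permutation procedure called, as higher in leader cells, against 3.0% of all genes. The adaptors SHC1 and GRB2, which couple receptor tyrosine kinases to Ras, differed by -0.38 and -0.31, and the adaptor NCK1 by 0.12. Of the 5 of 8 measured angiopoietin-like genes, which encode secreted relatives that do not bind Tie2, 3 were above 0 and 2 below with a median of 0.08. ANGPTL8, a regulator of lipoprotein lipase, had the largest difference at -0.77 (limma unadjusted p = 0.0637), and read 3.02, 3.17 and 2.90 on the leader arrays, against 3.87, 4.64 and 2.89 on the follower arrays, so the groups overlapped. ANGPTL4 differed by -0.18, ANGPTL6 by 0.14 and ANGPTL5 by 0.10.

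The endoglin pathway, in which BMP9 signals through ALK1 and receptor SMADs, had 9 of 20 genes measured, with 7 above 0, 2 below and a median of 0.12. SMAD5, a receptor-regulated SMAD of BMP signalling, had the largest difference of any gene in the lists that was brighter in leader cells. It read 3.81, 3.59 and 3.07 on the leader arrays, against 2.45, 2.48 and 2.50 on the follower arrays, with no overlap, a difference of 1.02 (standard error 0.28, limma unadjusted p = 0.0035, adjusted p = 0.9997) and a call by the permutation procedure. Of all genes, 5.01% had all leader arrays above all follower arrays, and 3.0% were called higher by that procedure. The control arrays read 3.71, 3.06 and 2.81 when photoconverted, against 3.41, 3.49 and 2.81 when not, so the follower arrays were the low ones. The common SMAD4 differed by 0.29, the ligand GDF2 (BMP9) by -0.11 and the inhibitory SMAD6 by -0.07.

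Of the genes for Weibel-Palade bodies and VWF secretion, 5 of 12 were measured, with 1 above 0, 4 below and a median of -0.33. CD63, a tetraspanin of late endosomes and of Weibel-Palade bodies that most cells express, read 5.99, 4.34 and 5.04 on the leader arrays, against 6.95, 6.27 and 5.94 on the follower arrays (difference -1.26, standard error 0.43, limma unadjusted p = 0.0122, adjusted p = 0.9997). The control arrays were at 5.81 to 7.03 when photoconverted and 6.01 to 6.29 when not, near the follower arrays. STXBP5, a regulator of SNARE-driven secretion, differed by -0.75, EXOC2, a subunit of the exocyst, by -0.33 and HPS6, a factor for lysosome-related organelles, by 0.31. CD63 and EXOC2 were called lower in leader cells by the permutation procedure, 2 of the 5 measured genes of this list, against 2.39% of all genes. VWF and ANGPT2 had positive differences, while 4 of the 5 measured genes of this list had negative ones. None of these differences passed limma's adjusted test, and a link between them was not tested.

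Among 40 of 46 other endothelial markers that were measured, 20 were above 0 and 20 below, with a median of 0.004, which is close to the 0.002 of all genes. SELE (E-selectin, the leukocyte adhesion molecule of activated endothelium) read 3.07, 3.04 and 2.93 on the leader arrays, against 2.53, 2.41 and 2.50 on the follower arrays, a difference of 0.53 (limma unadjusted p = 0.0381, adjusted p = 0.9997) with no overlap. All leader arrays lay above all follower arrays in 5.01% of all genes. PODXL, a sialomucin of the CD34 family, differed by 0.47 (limma unadjusted p = 0.0977). In the other direction, S1PR1, a sphingosine 1-phosphate receptor, differed by -0.51 (limma unadjusted p = 0.0387) and CD93, a C-type lectin of endothelial and myeloid cells, by -0.63 (limma unadjusted p = 0.126), with follower replicate 3 at 5.17. Of the 40, the permutation procedure called SELE higher in leader cells, against 3.0% of all genes. It called CD93 and the transcription factor GATA2 (difference -0.33) lower, against 2.39% of all genes. The mural and fibroblast list had 4 of 8 genes measured, 2 above 0 and 2 below. CSPG4, the pericyte proteoglycan NG2, was the 1 with an unadjusted p under 0.05, at 3.71, 3.20 and 3.11 on the leader arrays, against 2.79, 2.88 and 2.55 on the follower arrays (difference 0.60, limma unadjusted p = 0.0443, adjusted p = 0.9997), while RGS5, a pericyte regulator of G protein signalling, differed by -0.33. VIM read 6.48, 4.15 and 5.14 on the leader arrays, against 6.81, 5.65 and 5.29 on the follower arrays.

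**Figure D5:**
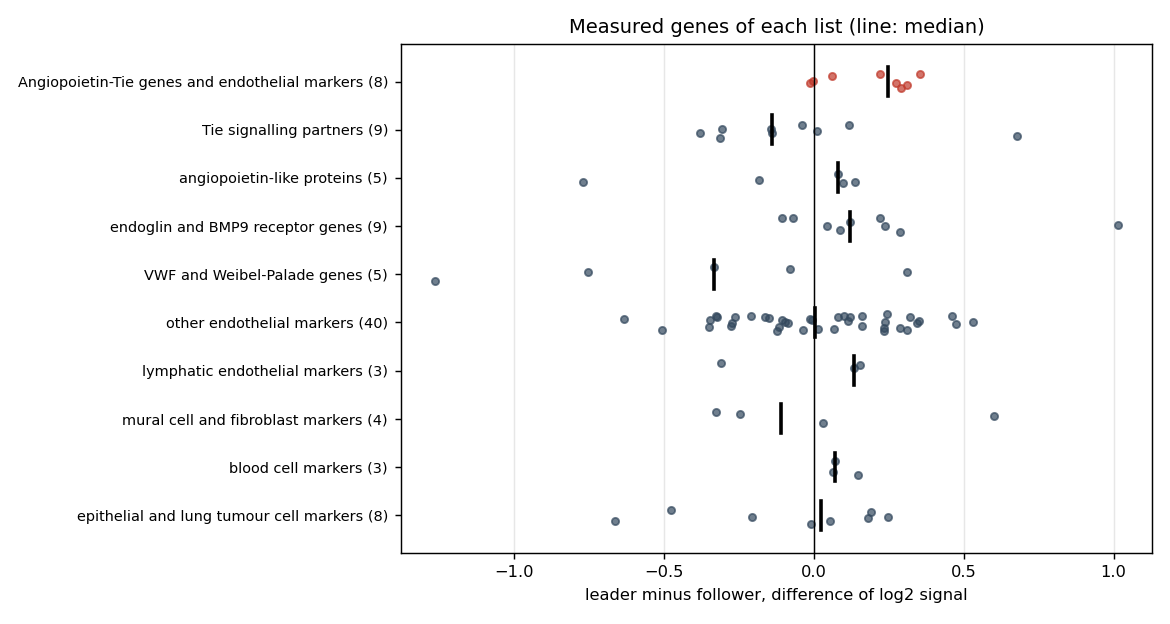
Leader minus follower differences of log2 signal (x axis) for every measured gene of each list (rows, with the number of measured genes), with the list median as a vertical line. The 8 genes described here have a median of 0.25, the 40 other endothelial markers scatter evenly around 0, and the genes farthest out are SMAD5 at 1.02 and CD63 at -1.26.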

How the data were processed

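Small pools of sorted H1299-Dendra2 cells (4 groups, 3 arrays each) were processed with an amplification kit, and their amplified cDNA was run on an Affymetrix whole-transcript human array. The log2 values were made by the authors in Partek 6.6, with a GC adjustment, RMA background correction, quantile normalization and the mean over a probeset's probes. Genome build: not given in the sources used here. Array number limits the precision. Quantile normalization sets the arrays to a common distribution over all their probes, so a change of total RNA cannot be seen. The tested genes are only a part of what was normalized, and their distribution still differed between arrays. From 76 to 332 of them had a log2 signal above 6.

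Of 53617 probesets, 5473 were at 0 on all arrays and 16098 carried 1 gene symbol in GEO's platform annotation. The other 37519 carry no symbol in it. Where a symbol had several probesets, the brightest on average over the arrays was taken, which left 14884 symbols, and each of the 8 measured genes had 1 probeset. The members, the gene lists and the tests were chosen with earlier results of these data known. Named genes were all measured members, from each list at most the 2 largest differences in each direction and any with an unadjusted p under 0.05, and the 2 genes most correlated with each member. VIM, KRT18, EPCAM, NKX2-1, PF4, KRT8, SFTPC, RGS5, EXOC2, GATA2 and the lymphatic genes were named as marker checks or as members of a count of 5 or fewer, with their values seen. ADGRF5 was named for its repeated probeset.

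A single limma 3.58.1 model in R 4.3.3 covered the 4 groups (lmFit, eBayes), with p-values adjusted over all genes by Benjamini-Hochberg and a threshold of 0.05. The methods' permutation procedure was rewritten with NumPy 2.4.6 (Python 3.11.15). In 500 rounds it shuffled the 18 differences of a gene, took as p the share of rounds where the 1-sample and the 2-sample statistic were both as large as observed, and left out genes with an unadjusted p under 0.05 between the controls. Not every detail of it is given in the methods. Both were also run on simulated data with independent normal errors as a check of the code. Its outcome is not given here, and no result rests on it. Other settings tried were median centring, cyclic loess, all probesets, the mean of probesets, a filter on level, the methods' t-test, a replicate block, other options of limma and leaving out each array. Deviations of same-numbered arrays correlated at -0.07 to 0.22, with 3 of 18 pairs over 0.1, and the replicate numbers were not used as pairs in the main fit. Arrays with different numbers were not compared in this way.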

Additional observations from a re-analysis of the deposited data

How the results depend on the processing

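For the 8 genes, 163 alternative values of leader minus follower kept their direction and side of the threshold and 7 turned, and for photoconverted minus non-photoconverted 156 kept them and 14 turned. Many of these alternatives could not move a difference, only its p-value. They changed the estimate of the spread, the other probesets or the arrays of groups outside the comparison. The counts are therefore no measure of stability. No gene of the 8 passed limma's adjusted test under any alternative. For ANGPT2 the unadjusted limma p was 0.0265 to 0.158 and the adjusted p 0.934 to 0.9998 over 21 alternatives, and for EMCN they were 0.0929 to 0.296 and 0.955 to 0.9998. These ranges leave out the methods' t-test between leader and follower cells. That t-test gave an unadjusted p of 0.0496 for ANGPT2 and 0.0164 for EMCN, with an adjusted p of 0.998 for each.

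Of the differences that turned, ENG between leader and follower cells was 0.0243 with array weights. Between photoconverted and non-photoconverted cells, cyclic loess gave -0.0239 for ANGPT2 and -0.0202 for ENG, median centring gave -0.0183 and -0.0159, and array weights gave -0.0130 and -0.0811. Leaving out each array in turn, leader minus follower ran from -0.0305 to 0.0322 for PECAM1, -0.122 to 0.170 for ENG and -0.0336 to 0.231 for ESAM, and photoconverted minus non-photoconverted from -0.0538 to 0.403 for ANGPT1, -0.0893 to 0.0594 for ANGPT2, -0.175 to 0.144 for ENG and -0.0302 to 0.196 for EMCN, with TIE1 at 0.0370 to 0.297. The other leader minus follower differences kept their direction, at 0.28 to 0.46 for ANGPT2, 0.22 to 0.30 for EMCN, 0.18 to 0.36 for ANGPT1, 0.12 to 0.31 for TIE1 and 0.13 to 0.46 for VWF. The causes were not tested.

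Over all genes, limma's adjusted test called 0 genes in each comparison. With only the arrays compared, it called 1 between the controls. Without single arrays it called 0 to 1 between leader and follower cells, 0 to 4 between the controls, 0 to 4 between leader and photoconverted cells, 0 to 4 between follower and photoconverted cells, 0 to 1 in the test of the excess and 0 to 4 among the 4 groups. The 4 genes came without invasive photoconverted replicate 1, and the 1 gene between leader and follower cells without leader replicate 3. By the permutation procedure, 446 genes were higher in leader cells, 224 with the filter on level, 1431 over all probesets, 236 with the 1-sample statistic alone and 373 to 713 without single arrays. The same procedure called 356 higher in follower cells, with 172, 1130 and 174 under the same changes and 290 to 773 without single arrays. Genes at an unadjusted p under 0.05 between leader and follower cells numbered 613, against 299 of the 7442 genes left by the filter and 2152 of 48144 probesets. The methods' t-test gave 602 such genes and 0 after adjustment. The correlation of same-numbered arrays' deviations was -0.07 to 0.22 over 18 pairs, with 3 over 0.1, and a fit with the replicate block called 0 genes between leader and follower cells, with 669 at an unadjusted p under 0.05. Leaving out genes with a repeated probeset, chosen after seeing the data, called 0 of 14084. The alternative of every probeset of a gene side by side added nothing, since each of the 8 had 1 probeset.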
